A study of Vitis vinifera with 26 samples.

Results

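Unidentified loci were the assembled loci of grapevine berries whose isoforms all lacked a reference identifier in the authors' table of isoform attributes. There were 2182 of them, with 2567 isoforms, among 33229 assembled loci in all, and the other 31047 loci carried an identifier on at least 1 isoform. The choice used the annotation only, and its second condition, that no isoform be classed as antisense to a reference gene, removed 0 loci. The libraries were total RNA of berries from field-grown 'Pinot Noir' plants that were 8 years old. Clusters were enclosed in a bag and given 1-methylcyclopropene (1-MCP) at 5 ppm for 24 h, or a mock treatment, and were sampled after 24 h. The 6 groups were 1-MCP and control clusters at 6 weeks after anthesis (WAA, 3 libraries each), at 7 WAA (5 each) and at 8 WAA (5 each). The series' design text states that the treated and the control cluster of a number came from 1 plant, which gives 13 pairs, and whether a plant was used in more than 1 week is not given. A description label calls every library a treated cluster, so the controls were known from source names and titles.

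The locus values of a library were mostly whole multiples of 1 constant step, and a locus value is given here in these units. Of the values above 0 in a library, 97.7% to 98.5% were whole to within 0.01 units. A locus was called detected at 0.5 units or more. Each library held between 20368 and 23485 units. Between whole values 1 unit is the smallest difference that can be seen. The files pair no identifier with a gene name, so neither gene roles nor the tissue label could be checked against named markers. The values come from whole berries, in which fewer cells of a type and less RNA per cell cannot be told apart.

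1-MCP is a gas that binds ethylene receptors and keeps them from responding to ethylene. Grape berries pass in these weeks towards véraison, the onset of ripening, at which they soften, colour and take up sugar. When reads are assembled into transcripts on a genome, some transcripts fall where the annotation has no gene. Such loci are known in plants to include coding genes that an annotation missed, long non-coding RNAs, transcribed transposable elements and detached ends of neighbouring genes. Position and level alone do not say which of these a locus is.

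The unidentified loci were short and mostly simple. Their longest transcript had a median of 448.5 bases, with quartiles of 285 and 787 and a range of 200 to 6695 bases, against a median of 1530 bases and quartiles of 723 and 2535 in identified loci. A single isoform was listed for 90.0% of unidentified loci and for 56.1% of identified loci. An intron could be looked for in loci with 1 isoform in an interval of their own, by comparing the length of the transcript with that of the interval. Of 1660 such unidentified loci 1273 (76.7%) had no intron, against 4627 of 12715 (36.4%) identified loci. These figures describe the assembly and carry no test, since loci are not replicates.

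Unidentified loci lay on all chromosomes and made up a larger share of the unplaced sequence. They were 6.10% of the loci on the chromosomes (1786 loci), 9.86% of those on the unassigned sequence Un (305 loci) and 10.4% of those on sequences assigned to a chromosome but not placed on it (91 loci). Between chromosomes the share ran from 3.97% on chromosome 11 to 7.83% on chromosome 19. An interval was shared with an identified locus by 260 unidentified loci, where reads could be split between the loci. The other 1922 lay apart, with a median gap over all 2182 of 2808 bases to the nearest identified locus. The gap was up to 500 bases for 199 loci, up to 5000 for another 963, up to 20000 for 635 and longer for 125. The largest, 127500 bases, was that of XLOC_005662 on chromosome 12 (11268401 to 11268630), which has no intron and was detected in 1 library of 1-MCP clusters and 6 of controls. Coordinates are those of the files, counted from 1, and the genome build is not given in the sources used here.

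Some unidentified loci lay next to each other. Without any identified locus between them, 805 stood in 321 runs of at least 2, and 15 runs held at least 5. The longest run held 7 loci on chromosome 16, from XLOC_012231 (5405711 to 5406511) to XLOC_011722 (5417653 to 5419455), and all 7 were without an intron. Its members were not detected alike. XLOC_012232 (5408013 to 5410360), of 2348 bases, was detected in all 26 libraries, and XLOC_011722, of 1803 bases, in 23. XLOC_012231 and XLOC_011721 were detected in 3 and 7 libraries, and the 3 shortest, XLOC_012233, XLOC_012234 and XLOC_012235, of 217 to 253 bases, in 1 or 2 each.

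Most unidentified loci were seen in few libraries. They were detected in a median of 3 of the 26 libraries, against 8 for identified loci. A single library detected 745 of them (34.1%), whereas 1304 identified loci (4.20%) were seen in 1 library only. At the other end 139 unidentified loci (6.37%) and 24.3% of identified loci were detected in all 26. Only 4 unidentified loci (0.183%), but 37.0% of identified loci, were detected in none. An identified locus can be listed because the annotation holds it. Whether these libraries were those assembled is not given in the sources used here. Of the unidentified loci 83.1% never exceeded 1 unit, against 59.3% of identified loci, and the highest value was 7 units, against 23. Among them, 83 stood at 1 unit in all 26 libraries.

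**Figure D1:**
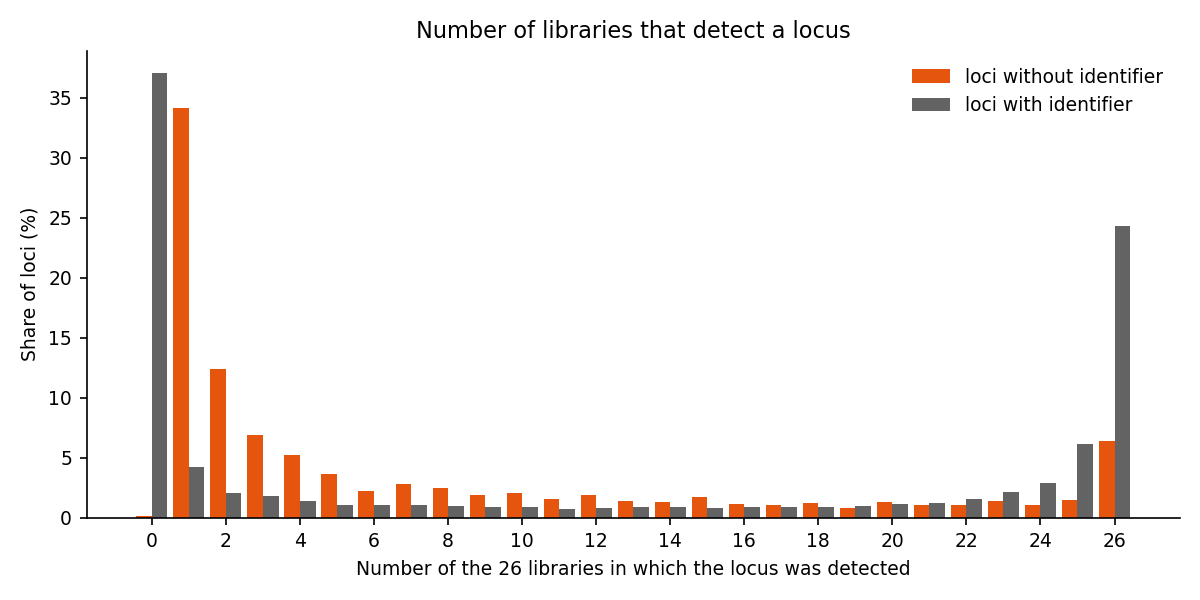
Share of loci (%) by the number of the 26 libraries that detect them, for 2182 loci without a reference identifier (orange) and 31047 with one (grey). Loci without identifier pile up at 1 library (34.1%), and loci with one at 0 (37.0%) and at 26 (24.3%).

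By the length of the longest isoform, detection was higher in longer loci of both kinds, up to 5000 bases. Of unidentified loci of over 200 and up to 300 bases 7.87% were detected in an average library (SD over 26 libraries 4.45), and of those of over 2000 and up to 5000 bases 66.4% (SD 6.63). Identified loci were detected at 0.998% in the short class and at 75.2% in the long one. Between 500 and 1000 bases the values were 40.6% for unidentified and 16.1% for identified loci. Leaving out the identified loci that no library detected gave 40.7% in that class, and 24.1% between 300 and 500 bases, against 16.8% for unidentified loci. Above 1000 bases unidentified loci were detected less often than these, at 54.4% against 67.1% between 1000 and 2000 bases. The order of the 2 kinds depended on which isoform gave the length. By the shortest isoform, unidentified loci were detected less often than identified ones between 200 and 300 bases (8.79% against 14.0%) and between 1000 and 2000 bases (53.8% against 55.9%). They were about level with them between 300 and 500 bases (18.6% against 18.0%) and above them between 500 and 1000 bases (42.2% against 32.8%). Identified loci detected in at least 1 library lay above unidentified loci in all these classes by the shortest isoform. They were detected at 50.4%, 54.3%, 60.6% and 74.2%, in order of length. The more widely detected loci were longer and more often spliced. Loci seen in 1 library had a median of 278 bases and 85.9% of them had no intron, whereas those seen in all 26 had a median of 882 bases and 72.6% had none.

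**Figure D2:**
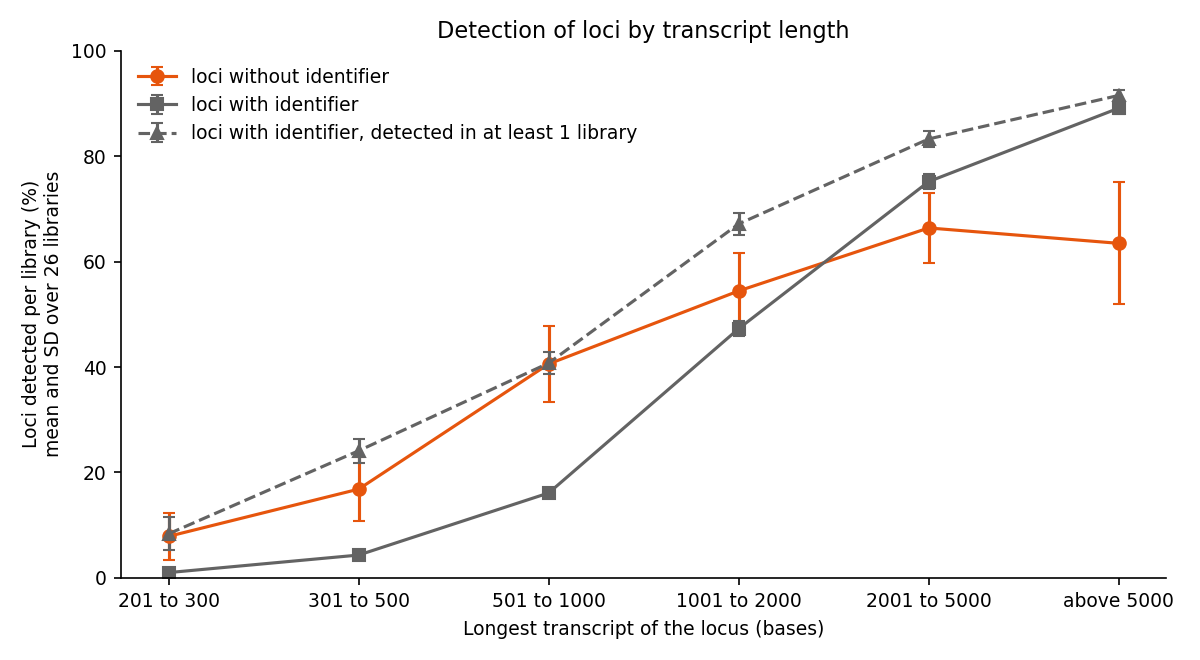
Share of loci detected per library (%), as mean and SD over 26 libraries, by the length of the longest transcript in bases. By this length, loci without identifier (orange) lie above all loci with identifier (solid grey) up to 2000 bases, an order that turns in the classes of 200 to 300 and 1000 to 2000 bases when the shortest isoform is used, and they lie at or below those detected at least once (dashed).

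The 5 highest unidentified loci were detected in most libraries. XLOC_021800 on chromosome 4 (23288661 to 23357005) had the highest mean, 4.54 units. It had 5, 6 and 6 units in 1-MCP clusters and 5, 4 and 3 units in controls at 6 WAA. At 8 WAA it had 5, 4, 4, 5 and 6 units in 1-MCP clusters and 2, 3, 5, 5 and 5 in controls, so the groups overlapped. XLOC_017506 on chromosome 19 (7867935 to 7869604), a transcript of 1670 bases without an intron, had 2 to 4 units in every library and a mean of 3.54. XLOC_018582 on chromosome 2 (11440149 to 11442484), without an intron over 2336 bases, had 2 to 4 units in every library. It lay 112496 bases from the nearest identified locus. XLOC_012661 on chromosome 17 (6896438 to 6900554) had 1 to 6 units, and XLOC_032660 on Un (33285500 to 33521761), which shares its interval with 8 identified loci, 0 to 4 units. By group XLOC_032660 averaged 2.0 units in 1-MCP clusters and 1.0 in controls at 6 WAA, where it was detected in 3 and in 1 of 3 libraries, 3.2 and 2.6 units at 7 WAA, and 2.8 and 1.8 units at 8 WAA.

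Among loci detected in all 26 libraries the longest were XLOC_002394, XLOC_012661 and XLOC_024165. XLOC_002394 on chromosome 10 (2494275 to 2499744) is listed as a single unspliced transcript of 5470 bases and had 1 to 4 units. XLOC_024165 on chromosome 6 (12584337 to 12588303), of 3860 bases, had 1 to 4 units as well. The longest unidentified locus of all was XLOC_001006 on chromosome 1 (3021315 to 3040742), of 6695 bases, which shares its interval with 3 identified loci. It was detected in 15 libraries, and XLOC_000166, an identified locus of 7515 bases in the same interval, in 13. In 13 libraries the first was detected without the second, in 11 the second without the first, and in 2 both. Their sum was never below 1 unit and reached 7, so the value of each alone is uncertain.

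The number of unidentified loci detected differed between libraries by more than that of identified loci. It ran from 406 to 971 (18.6% to 44.5% of them), while 42.9% to 46.8% of identified loci were detected, and their share of all units from 2.10% to 4.87%. At 6 WAA 719, 551 and 479 were detected in 1-MCP clusters and 612, 801 and 545 in controls, in the order of the replicate numbers. At 7 WAA 598, 652, 697, 406 and 729 were detected in 1-MCP clusters and 620, 593, 684, 971 and 620 in controls, for replicates 1, 2, 3, 4 and 12. At 8 WAA the numbers were 568, 536, 576, 427 and 532 in 1-MCP clusters and 602, 777, 553, 426 and 448 in controls. The groups overlapped at each week. Across the 13 plants the 1-MCP cluster had more detected unidentified loci in 7 and fewer in 6, a mean difference of -60.2 ± 190 (SD, n = 13). The sign of that mean rested on the plants of 3 control libraries, 6 WAA replicate 2, 7 WAA replicate 4 and 8 WAA replicate 2. These are the controls that detected the most unidentified loci, so leaving out their plants favours a higher difference by the way they were picked. Without these plants the 1-MCP clusters averaged 597.7 and the controls 570.3, a difference of 27.4 ± 60.6 (SD, n = 10), with more in the 1-MCP cluster in 7 plants and fewer in 3. The total of units was higher in the 1-MCP cluster in 12 of these 13 plants.

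These 3 control libraries detected the most unidentified loci of all 26 libraries, 801, 971 and 777, with 729 in the next library. They alone held 324 of the 745 loci seen in a single library (43.5%), and 17.6% of the identified loci seen in a single library. The 1-MCP cluster of the plant with 971 detected loci, 7 WAA replicate 4, had the fewest of all libraries, 406. The same library lacked most of the unidentified loci that were lower at 8 than at 7 WAA in controls, as given with those loci. Among the calls of named loci described further on, 7 were lost without the 3 control libraries (limma, adjusted p 0.0598 to 0.310). They were XLOC_005612 for 1-MCP at 6 WAA and for 7 against 6 WAA in controls, XLOC_013773 for 7 against 6 WAA, XLOC_006327 for 8 against 7 WAA, and XLOC_011846, XLOC_027932 and XLOC_017839 for 8 against 6 WAA. In the comparisons of 1-MCP with control the whole plants of these libraries were left out, with their 1-MCP clusters. XLOC_023041 (1-MCP at 6 WAA, and 7 against 6 WAA in controls) and XLOC_029511 (7 against 6 WAA in controls) were then seen in too few libraries to be tested in those comparisons.

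**Figure D3:**
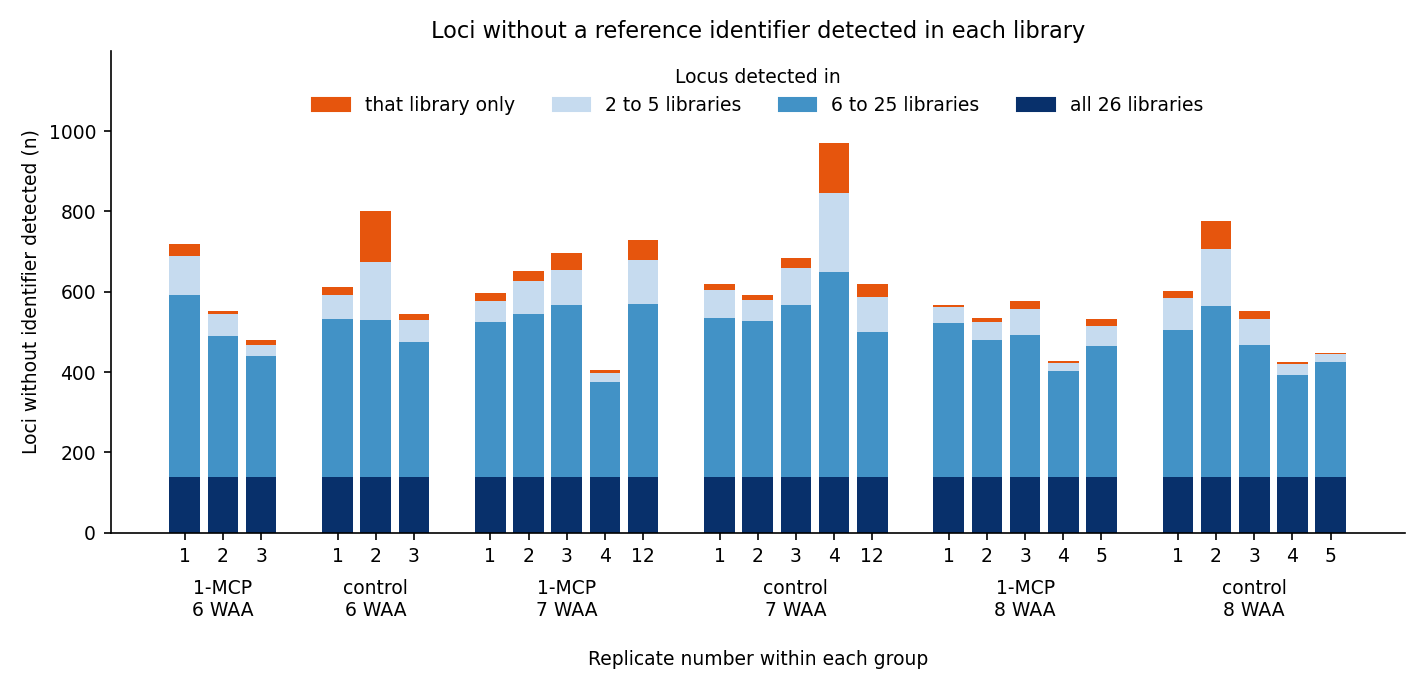
Number of loci without a reference identifier detected in each of the 26 libraries, with the 1-MCP libraries of a week left of its controls, split by how many libraries share the locus. Control libraries 6 WAA replicate 2, 7 WAA replicate 4 and 8 WAA replicate 2 reach 801, 971 and 777, with 127, 126 and 71 loci seen in that library only.

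At 6 WAA 1-MCP was compared with control to ask what the gas changed in the berries. Of the 2182 unidentified loci 1079 had at least 0.5 units in 3 or more libraries and were not constant, and 2 of these passed the threshold, 1 higher and 1 lower in 1-MCP clusters. Of all 16791 loci tested 0.0357% passed (limma, adjusted p under 0.05), 0.0238% upwards and 0.0119% downwards. XLOC_023041 on chromosome 5 (5463663 to 5465149), of 656 bases and spliced, was listed at 0 in all 3 1-MCP clusters and at 1 unit in all 3 controls. It was at 0 in all 20 libraries of the later weeks. Its log2 fold change on the log2(units + 1) scale was -1.0 ± 0.12 (SE, limma, adjusted p = 0.0107), and since its values had no spread within groups, this p does not measure variation between plants. The locus passed the filter only through these controls.

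The neighbour of XLOC_023041 showed the same pattern. XLOC_023042, which carries the identifier VIT_205s0020g03770 and lies 986 bases away (5466136 to 5469485), was at 0 in the 3 1-MCP clusters and at 1, 1 and 2 units in the controls at 6 WAA. It was also at 0 in every library of 7 and 8 WAA, so that it too passed the filter only through these controls. It was picked as the nearest identified locus, not for its value. The libraries that detected either locus were thus the 3 controls of 6 WAA.

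XLOC_005612 on chromosome 12 (21751513 to 21756774), with 2 isoforms of up to 1726 bases, went the other way. It was at 1 unit in all 3 1-MCP clusters and at 0 in all 3 controls of 6 WAA (log2 fold change 1.00 ± 0.15, SE, limma, adjusted p = 0.0397). Its values had no spread within the groups of 6 WAA either, so this p does not measure variation between the plants of that week. At 7 WAA it was at 1 unit in all 1-MCP clusters and all controls, and at 8 WAA at 1 or 2 units in all of them. The control clusters of 6 WAA were thus the libraries that lacked it. The difference of the 1-MCP effect between 7 and 6 WAA was -1.0 ± 0.19 (SE, limma, adjusted p = 0.339), which did not pass. The call itself was lost in 14 of 22 alternatives (adjusted p 0.0514 to 0.254), among them leaving out any plant of 6 WAA. XLOC_023041 lost its call in the fit of the 6 WAA libraries alone (adjusted p = 0.217). It fell out of the test with a filter at 5 libraries and without any plant of 6 WAA.

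At 7 WAA and at 8 WAA 0 unidentified loci passed, and so did 0% of all loci tested (limma). An unadjusted p under 0.05 was found for 63 unidentified loci at 7 WAA and 51 at 8 WAA, of 1079 tested (5.84% and 4.73%), against 6.23% and 5.01% of all loci. The 2 with the smallest p at 7 WAA were XLOC_000747 and XLOC_011243. XLOC_000747 on chromosome 1 (20484515 to 20486394), of 680 bases, was at 0 in all 5 1-MCP clusters and at 2, 2, 1, 1 and 1 units in controls. The groups did not overlap (log2 fold change -1.23 ± 0.19, SE, limma, adjusted p = 0.208). The locus passed in 1 alternative, without the whole plants of the 3 control libraries that detected the most unidentified loci (limma, adjusted p = 0.0441).

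XLOC_011243 on chromosome 16 (13708240 to 13712106), a spliced transcript of 2486 bases, had 1, 1, 1, 0 and 1 units in 1-MCP clusters of 7 WAA, against 2, 2, 2, 1 and 2 in controls. Each 1-MCP cluster thus had 1 unit less than the control of its plant (log2 fold change -0.67 ± 0.11, SE, limma, adjusted p = 0.310). It passed when loci constant in all libraries were kept in the fit (adjusted p = 0.0287). At 8 WAA the smallest p belonged to XLOC_031748 and XLOC_017839. XLOC_031748 on Un (5495510 to 5498057) was at 1, 1, 1, 0 and 1 units in 1-MCP clusters and at 0 in all 5 controls (adjusted p = 0.625). XLOC_017839 on chromosome 2 (4440432 to 4441879) was at 1 unit in all 5 1-MCP clusters and at 2, 2, 2, 3 and 2 in controls (log2 fold change -0.67 ± 0.17, SE, adjusted p = 0.625).

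The unidentified loci leaned towards lower values in 1-MCP clusters. The lean turned when the plants of the 3 control libraries that detected the most of them were left out. At 7 WAA 323 of 1079 (29.9%) were higher and 496 (46.0%) lower by more than 0.05 on the log2 scale, against 41.3% and 35.4% of all loci tested. Without the plant of replicate 4 there were 381 (37.3%) higher and 324 (31.7%) lower of 1022, against 40.5% and 33.1% of all loci. At 6 WAA 294 (27.2%) were higher and 328 (30.4%) lower, against 36.9% and 33% of all loci. Without replicate 2 of that week these were 283 (27.3%) and 252 (24.3%), against 32.3% and 28.2%. At 8 WAA 312 (28.9%) were higher and 379 (35.1%) lower, against 40.6% and 32.3% of all loci. Without replicate 2 of that week these were 312 (30.4%) and 279 (27.2%), against 39.3% and 31%. All loci thus leaned upwards with and without these plants. The median log2 fold change was 0 for unidentified loci and for all loci at each week. The plants left out were picked because their controls detected the most unidentified loci, so a turn in this direction was favoured by the choice. The plant of 7 WAA replicate 4 also held the 1-MCP library that detected the fewest.

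Loci seen mostly under 1 treatment were looked for among those detected in at least 10 libraries. XLOC_027224 on chromosome 8 (12669165 to 12670967), which lies 60 bases from an identified locus, was detected in 12 of 13 1-MCP libraries and in 4 of 13 controls. XLOC_004064, which shares its interval with 3 identified loci, and XLOC_019687 were detected in 11 1-MCP libraries and 4 controls each. XLOC_019687 on chromosome 3 (4473886 to 4475621) was at 1 unit in all 1-MCP clusters and at 0 in all controls of 6 WAA. In the other direction XLOC_018768 on chromosome 2 (8246623 to 8246975), of 353 bases, was detected in 1 1-MCP library and 10 controls. XLOC_000747 was detected in 2 1-MCP libraries and 10 controls, and XLOC_021834 on chromosome 4 (10156644 to 10157473) in 4 and 12. These loci were picked for this difference, so the counts are a description.

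The weeks were compared within each treatment to follow the loci towards ripening. Over the 9 comparisons of treatment and week 52 unidentified loci passed at least once (4.82% of 1079), and 23 of them more than once (44.2%). Of all 16791 loci tested 433 passed at least once (2.58%), and 42.5% of these more than once. They had a median of 777 bases, lay on 18 chromosomes (45 loci), on Un (6) and on 1 sequence assigned but not placed. Of the 52, 32 were never above 1 unit, and the nearest identified locus of 31 was at 0 in all 26 libraries. Over all unidentified loci outside shared intervals that held for 39.7%, and for the neighbours of identified loci for 36.9%. Where values have no spread within groups (residual SD under 0.05), p does not measure variation between plants. Such loci made up 2 of 3, 5 of 7 and 7 of 37 calls in 1-MCP clusters (7 against 6, 8 against 7 and 8 against 6 WAA) and 3 of 4, 5 of 9 and 8 of 22 in controls. Over all loci they made up 15 of 24, 14 of 59 and 29 of 209 calls in 1-MCP clusters and 8 of 27, 26 of 119 and 39 of 224 in controls. Only 1 week detected 2, 4 and 6 of these called loci in 1-MCP clusters and 3, 1 and 2 in controls, and these passed the filter through that week.

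**Figure D4:**
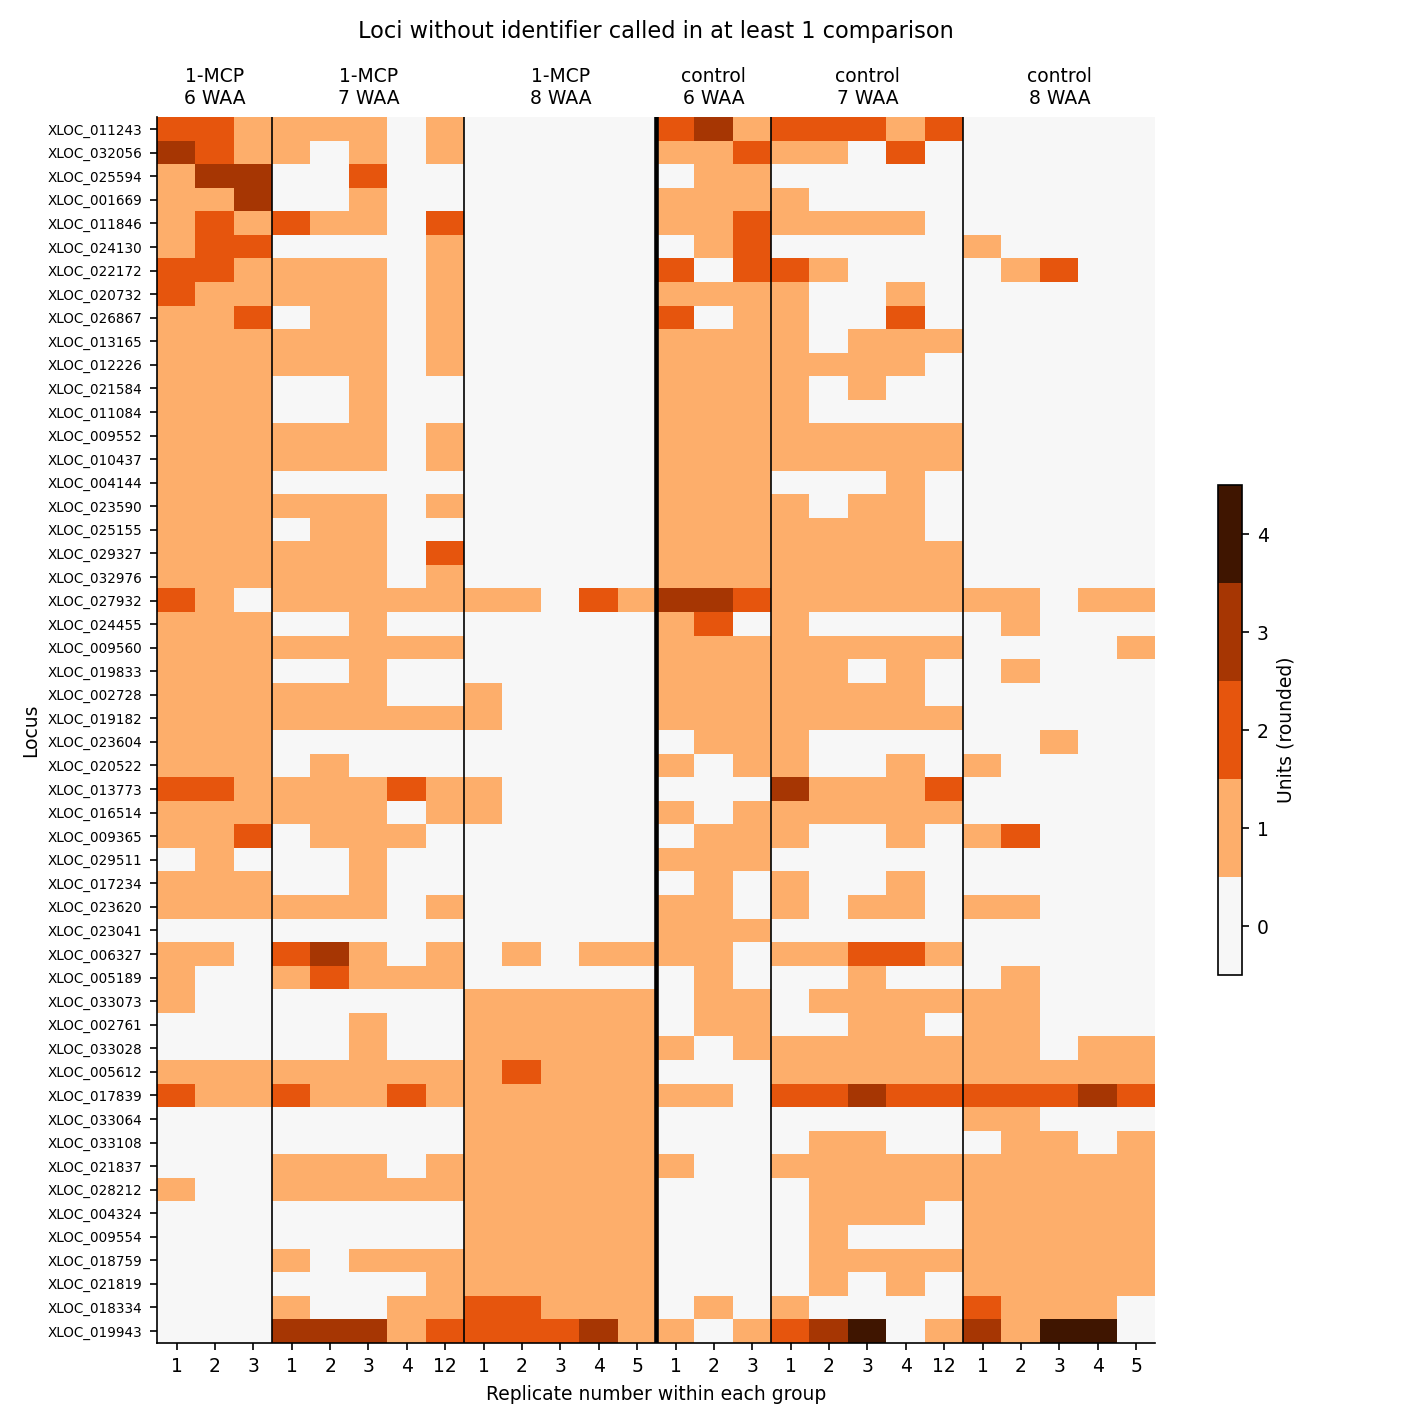
Units, rounded to whole numbers, of the 52 loci without identifier that passed in at least 1 comparison, in the 13 1-MCP libraries (left of the thick line) and the 13 controls, sorted by the change from 6 to 8 WAA. Most of the upper loci are at 0 at 8 WAA in both treatments, and in the 1-MCP library 7 WAA replicate 4 most of them are at 0 too.

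Between 6 and 7 WAA few unidentified loci changed. In controls 816 were tested and 4 passed, 2 higher and 2 lower at 7 WAA, where 0.184% of 14646 loci passed, 0.0751% upwards and 0.109% downwards. XLOC_013773 on chromosome 18 (4019291 to 4024615), with 4 isoforms of up to 2278 bases, had 3, 1, 1, 1 and 2 units at 7 WAA, against 0 in each of the 3 controls of 6 WAA (log2 fold change 1.32 ± 0.22, SE, limma, adjusted p = 0.0273). Among controls it was detected at 7 WAA only, so it passed the filter of this fit through that week. The 1-MCP clusters of 6 WAA had 2, 2 and 1 units of it, and those of 7 WAA 1, 1, 1, 2 and 1. XLOC_005612 rose as well, and XLOC_023041 fell, through the control values of 6 WAA given above. XLOC_029511 on chromosome 9 (1969997 to 1970600) was at 0 in all 5 controls of 7 WAA and at 1 unit in all 3 of 6 WAA. The counts rest on 3 libraries at 6 WAA, and without replicate 2 of these 1 locus passed, without replicate 3 of these 2, and without control 7 WAA replicate 1, 13. Over all loci 0.0353%, 0.104% and 0.535% passed in these 3 cases.

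In 1-MCP clusters 717 unidentified loci were tested between 6 and 7 WAA and 3 passed, 1 higher and 2 lower at 7 WAA, where 0.165% of 14502 loci passed, 0.0552% upwards and 0.110% downwards. XLOC_019943 on chromosome 3 (11144209 to 11163193), a locus with 7 isoforms, had 3, 3, 3, 1 and 2 units at 7 WAA, against 0 in each of the 3 libraries of 6 WAA (log2 fold change 1.72 ± 0.26, SE, limma, adjusted p = 0.00925). It had 2, 3, 4, 0 and 1 units in controls of 7 WAA and 1, 0 and 1 in those of 6 WAA, which overlap. XLOC_004144 on chromosome 12 (1627182 to 1633175) and XLOC_023604 on chromosome 5 (13866646 to 13866963) were at 0 in all 5 1-MCP libraries of 7 WAA and at 1 unit in all 3 of 6 WAA. XLOC_023604 is short, 318 bases without an intron, and lies 34100 bases from the nearest identified locus. Leaving out 1-MCP 6 WAA replicate 2 or 3 left 0 loci, and leaving out 7 WAA replicate 3 gave 11, where 0%, 0.0631% and 0.367% of all loci passed.

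Between 7 and 8 WAA 9 unidentified loci fell in controls and 0 rose, where 0.813% of 14646 loci passed, 0.737% downwards and 0.0751% upwards. XLOC_011243 had 0 units in all 5 controls of 8 WAA, against 2, 2, 2, 1 and 2 at 7 WAA (log2 fold change -1.47 ± 0.19, SE, limma, adjusted p = 0.000907). It was the locus with the largest change among the 9. XLOC_013773 was at 0 in the 5 controls of 8 WAA, against the values of 7 WAA given above, so its level in controls was above 0 at 7 WAA only (log2 fold change -1.32 ± 0.19, SE, limma, adjusted p = 0.00262). It passed the filter only through that week, and both its calls in controls rest on that 1 group. XLOC_006327 on chromosome 13 (19038879 to 19044707) had 0 units in the 5 controls of 8 WAA, against 1, 1, 2, 2 and 1 at 7 WAA (adjusted p = 0.00994). XLOC_009552 on chromosome 14 (22055217 to 22055865), 649 bases without an intron, and XLOC_019182 on chromosome 3 (6905687 to 6984342), which shares its interval with 2 identified loci, were at 0 in all controls of 8 WAA and at 1 unit in all of 7 WAA. All 9 were detected in no control of 8 WAA and in every control of 7 WAA.

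The 1-MCP libraries had no part in choosing these 9, and all but 1 of them followed the weeks. In the libraries of 6 WAA 9, 9 and 8 of the 9 loci were detected, and in 7 WAA replicates 1, 2, 3 and 12 all 9. At 8 WAA 3, 1, 0, 1 and 1 were detected. The library labelled 1-MCP 7 WAA replicate 4 detected 2 of the 9, a number within the range of 8 WAA. Of the 99 identified loci that fell in the same comparison it detected 60, the other 1-MCP libraries of 7 WAA 92 to 97, and those of 8 WAA 20 to 63. The 17 unidentified loci lower at 8 than at 6 WAA in controls are no separate check. Some of the 9 are among them, and both lists rest on the same controls of 8 WAA. Of the 17 this library detected 2, the other 1-MCP libraries of 7 WAA 10 to 15, and those of 8 WAA 0 to 3. Of the 169 identified loci that fell in that comparison it detected 61. The other 1-MCP libraries of 7 WAA detected 103 to 148 of these, and those of 8 WAA 26 to 63. Of the 5 unidentified loci higher at 8 than at 6 WAA in controls the same library detected 4. The other 1-MCP libraries of 7 WAA detected 3 or 4 of these, and those of 8 WAA all 5. By these 5 loci replicate 4 thus lay within the range of 7 WAA. The cause of this pattern was not tested.

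**Figure D5:**
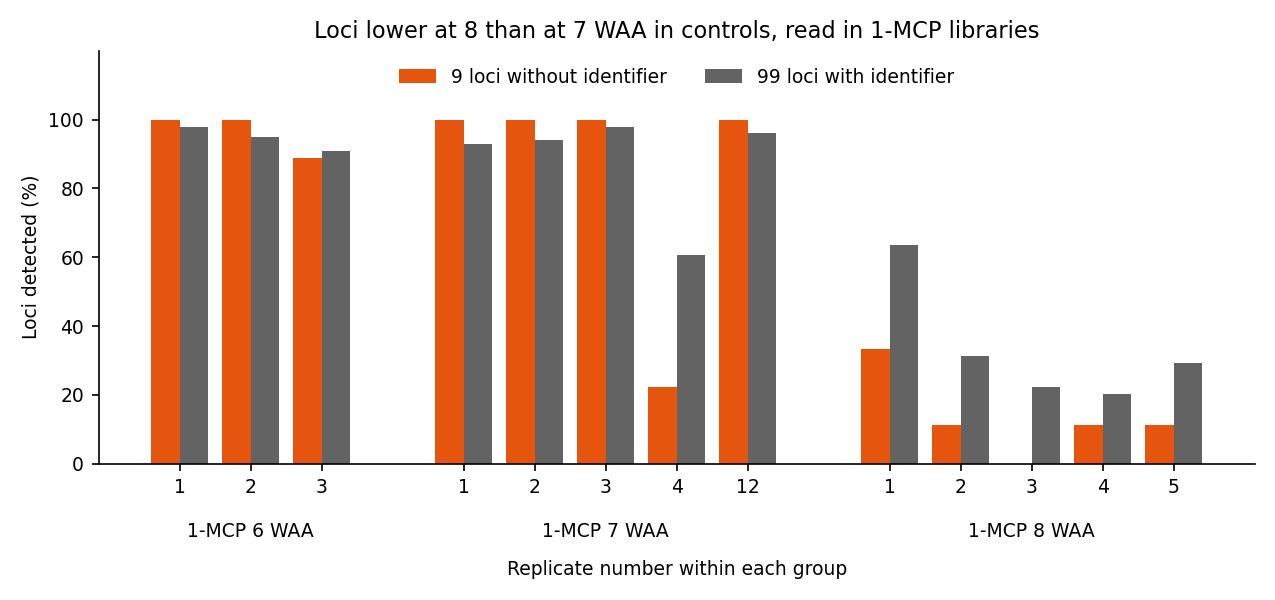
Share (%) of the loci that passed as lower at 8 than at 7 WAA in controls that was detected in each 1-MCP library, for the 9 loci without identifier (orange) and the 99 with one (grey). Replicate 4 of 7 WAA detects 2 of the 9, and the other 4 libraries of 7 WAA all 9.

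In 1-MCP clusters 7 unidentified loci passed between 7 and 8 WAA, 5 higher and 2 lower at 8 WAA, where 0.407% of 14502 loci passed, 0.165% upwards and 0.241% downwards. Without replicate 4 of 7 WAA 28 of 700 passed (4.0%), 5 higher and 23 lower. All loci moved the same way, with 1.42% of 14192 passing without that library, against the 0.407% with it. These 28 held all 7 and 5 of the 9 that fell in controls (55.6% of the 9 and 17.9% of the 28), whereas none of the 9 passed with that library. The same overlap over all loci was not counted, so nothing particular to unidentified loci is shown by it. The log2 fold change of all 9 was below 0 in the fit with that library, with a median of -0.80, against -1.0 in controls. The interaction of 1-MCP with week passed for 0 of 1079 unidentified loci, with 58 (7 against 6 WAA), 57 (8 against 7 WAA) and 55 (8 against 6 WAA) at an unadjusted p under 0.05 (limma). These are 5.38%, 5.28% and 5.10%, against 5.59%, 5.29% and 4.88% of all loci.

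Of the 5 that rose in 1-MCP clusters, XLOC_004324, XLOC_009554 and XLOC_033064 come under the rule for named loci. All 3 were at 1 unit in all 5 libraries of 8 WAA and at 0 in all 5 of 7 WAA and all 3 of 6 WAA (log2 fold change 1.00 ± 0.11, SE, limma, adjusted p = 0.000286). They thus passed the filter of this fit only through the libraries of 8 WAA. With no spread within groups, this p does not measure variation between plants. XLOC_009554 on chromosome 14 (22402610 to 22403186), 577 bases without an intron, was in controls also at 1 unit in all 5 libraries of 8 WAA, and in 1 of the 8 earlier ones. XLOC_004324 on chromosome 12 (5329355 to 5330227), of 326 bases, was likewise at 1 unit in all 5 controls of 8 WAA but also in 3 of 7 WAA. XLOC_033064 on Un (10165622 to 10166014) was in 2 of 5 controls of 8 WAA. Among the 2 that fell, XLOC_009560 on chromosome 14 (23635624 to 23636285) was at 0 in all 5 1-MCP libraries of 8 WAA and at 1 unit in all earlier ones, and XLOC_005189 on chromosome 12 (6958190 to 6959777) had 0 units at 8 WAA, against 1, 2, 1, 1 and 1 at 7 WAA. XLOC_009560 was also at 1 unit in all 8 controls of 6 and 7 WAA and at 0 in 4 of 5 of 8 WAA.

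The widest change was that between 6 and 8 WAA. In controls 22 of 816 unidentified loci passed, 5 higher and 17 lower at 8 WAA, where 1.53% of 14646 loci passed, 0.259% upwards and 1.27% downwards. In 1-MCP clusters 37 of 717 passed, 11 higher and 26 lower, where 1.44% of 14502 loci passed, 0.331% upwards and 1.11% downwards. Both lists held 11 loci, 50.0% of those of controls and 29.7% of those of 1-MCP clusters, and all 11 had the same direction. Over all loci both lists held 46, 20.5% of those of controls and 22.01% of those of 1-MCP clusters, and 45 had the same direction. Whether the overlap differs between unidentified and other loci was not tested. The list of 1-MCP clusters shrank to 11 when loci constant in all libraries were kept, and to 6 without 1-MCP 6 WAA replicate 2, where 0.451% and 0.407% of all loci passed. That of controls shrank to 9 without the 3 control libraries that detected the most unidentified loci, and to 8 without control 6 WAA replicate 2. Of all loci 0.644% and 0.593% passed there.

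Most of the unidentified loci that passed between 6 and 8 WAA were at 0 by 8 WAA. In controls 16 of the 22 loci were in all 3 libraries of 6 WAA and in none of 8 WAA, and 4 showed the opposite. In 1-MCP clusters these counts were 25 and 11 of 37. In the libraries of their treatment 18 of the 22 and 25 of the 37 loci were never above 1 unit. With such values and 3 libraries at 6 WAA a call nearly requires this separation. The same counts over all loci were not made, so no trait of unidentified loci is shown by them. XLOC_011243 was at 0 in all 10 libraries of 8 WAA, and at 6 WAA it had 2, 2 and 1 units in 1-MCP clusters and 2, 3 and 1 in controls. Its log2 fold change from 6 to 8 WAA was -1.39 ± 0.24 in 1-MCP clusters (SE, limma, adjusted p = 0.0104) and -1.53 ± 0.22 in controls (adjusted p = 0.00195). Its nearest identified locus lies 245 bases away and was at 0 in all 26 libraries. XLOC_011846, 319543 bases away on chromosome 16 (13385062 to 13388696), was also at 0 in all 10 libraries of 8 WAA. At 6 WAA it had 1, 2 and 1 units in 1-MCP clusters and 1, 1 and 2 in controls (log2 fold change -1.19 in both treatments, limma, adjusted p = 0.0799 in 1-MCP clusters and 0.0258 in controls).

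Further loci that were lower at 8 than at 6 WAA passed in 1 treatment, and whether the treatments differ in them is not shown by this. XLOC_025594 on chromosome 7 (8233976 to 8236994) had 0 units in all 1-MCP libraries of 8 WAA, against 1, 3 and 3 at 6 WAA (log2 fold change -1.67 ± 0.35, SE, limma, adjusted p = 0.0385), the largest fall among the 26. In controls it had 0 units in all libraries of 8 WAA and 0, 1 and 1 at 6 WAA, and was not tested. XLOC_032056 on Un (15306583 to 15312395), of 3015 bases, was at 0 in all 10 libraries of 8 WAA. At 6 WAA it had 3, 2 and 1 units in 1-MCP clusters (adjusted p = 0.0226) and 1, 1 and 2 in controls (adjusted p = 0.106). XLOC_024130 on chromosome 6 (10698562 to 10700299) had 0 units in 1-MCP libraries of 8 WAA, against 1, 2 and 2 at 6 WAA (adjusted p = 0.0104), and in controls 1, 0, 0, 0 and 0 units, against 0, 1 and 2 (adjusted p = 0.511). XLOC_027932 on chromosome 8 (9275332 to 9307470), of 2805 bases and in an interval of 3 unidentified loci, had 1, 1, 0, 1 and 1 units in controls of 8 WAA and 3, 3 and 2 at 6 WAA (log2 fold change -1.06 ± 0.23, SE, limma, adjusted p = 0.0351). In 1-MCP clusters it had 1, 1, 0, 2 and 1 units at 8 WAA and 2, 1 and 0 at 6 WAA (adjusted p = 0.988).

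Loci higher at 8 WAA were fewer. XLOC_019943 had 2, 2, 2, 3 and 1 units in 1-MCP clusters of 8 WAA and 0 in all 3 of 6 WAA (log2 fold change 1.55 ± 0.26, SE, limma, adjusted p = 0.00968). In controls it had 3, 1, 4, 4 and 0 units at 8 WAA and 1, 0 and 1 at 6 WAA, so those groups overlapped. XLOC_017839 had 2, 2, 2, 3 and 2 units in controls of 8 WAA, against 1, 1 and 0 at 6 WAA (log2 fold change 1.00 ± 0.23, SE, limma, adjusted p = 0.0499), a call that was lost in 18 of 21 alternatives. In 1-MCP clusters it had 1 unit in all libraries of 8 WAA and 2, 1 and 1 at 6 WAA. XLOC_005612 was at 1 unit in all 5 controls of 8 WAA and at 0 in all 3 of 6 WAA.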

How the data were processed

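Per the labels' protocols, RNA from berries was sequenced on an Illumina instrument, and the submitters' processing notes name Bowtie2 (version 2.2.3); no source used here gives the assembler or the genome build. The authors deposited 1 table of isoform signal per library and a table of isoform attributes. The signal was divided by each library's commonest value above 0.5 and summed per locus, which gave units (0.5 or more is detected). Units were not treated as read counts, because the ratio of variance to mean within groups (0.406 to 0.493 in unidentified loci) was below that of counting. Log2(units + 1) was fitted in limma 3.58.1 (R 4.3.3) over all loci with 0.5 units in at least 3 libraries of the fit that were not constant, with Benjamini-Hochberg adjustment at 0.05. Effects of 1-MCP came from all 26 libraries with a block for the 13 plants. Same-numbered libraries deviated together with correlations of -0.0900 to 0.0918, so the pairing rests on the design text. Weeks were compared within the 13 libraries of a treatment. With 3 to 5 plants a group, values of 0 and 1 limit precision. Scripts were tested on simulated data. Named loci were the 5 called loci with the largest fold change per comparison, the 2 with the smallest p where none was called, the 5 highest, the longest, the longest run, the largest gap, and the 3 most and least detected under 1-MCP. The loci and rules were chosen with earlier results of these data known. Of 31919 identifiers 0 matched the RefSeq gene table.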

Additional observations from a re-analysis of the deposited data

Results flagged for a closer look

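In groups of 5 libraries a library was looked for whose gap to its neighbour took up more than 0.71 of the group's range. This was done for 7 measures of unidentified loci in each such group, 28 checks in all, and 7 stood out. Chance gives about 1 in 20 per check, but the measures overlap, so the 28 are not independent and the 7 cannot be set against that rate. Of these, 4 were in control 7 WAA replicate 4: 971 unidentified loci detected, 1090 units in unidentified loci, 126 loci seen in that library only and 527 loci without an intron. Control 8 WAA replicate 2 had 71 loci seen in that library only. The 1-MCP library 7 WAA replicate 4, from the plant of the first, had 78 detected loci with an intron. The 1-MCP library 8 WAA replicate 4 had 1.20 units per detected unidentified locus. Single loci were not looked at in this way, since most are at 0 or 1 unit.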

How the results depend on the processing

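The 1-MCP fits carry a block for the plants, and without this replicate block 3 unidentified loci passed at 6 WAA, 0 at 7 WAA and 0 at 8 WAA. Of all loci 0.101%, 0% and 0% passed there. At 6 WAA the 2 calls became 0 with a filter at 5 libraries, 0 with that week's libraries alone and the block, and 1 with units scaled to the mean total. Over all loci 0%, 0% and 0.0298% passed in these cases, against the 0.0357% given above. At 7 WAA 1 passed with constant loci kept, where 0.00533% of all loci passed. In controls 7 against 6 WAA gave 1 with the filter at 5, and 8 against 7 WAA gave 15 in a fit of all 26 libraries and 31 with a pseudocount of 0.1. Over all loci 0.0458%, 0.816% and 1.46% passed in these cases. The shares given above for these 2 comparisons were 0.184% and 0.813%. In 1-MCP clusters 7 against 6 WAA gave 1 in the fit of all 26 and 1 with the filter at 5, 8 against 7 WAA gave 18 in the fit of all 26, and 8 against 6 WAA 11 with constant loci kept. Over all loci 0.0774%, 0.0459%, 0.703% and 0.451% passed in these cases. The shares given above for these 3 comparisons were 0.165%, 0.407% and 1.44%. Leaving out the 3 control libraries that detect the most unidentified loci was an alternative chosen after seeing the data. In the 1-MCP fits it took out their whole plants and gave 0 and 1 calls at 6 and 7 WAA. Of all loci 0% and 0.0127% passed there. For controls 7 and 8 against 6 WAA it gave 0 and 9, where 0.00749% and 0.644% of all loci passed. Leaving out 1 library or plant gave 0 to 3, 0 to 1 and 0 to 0 calls for 1-MCP at 6, 7 and 8 WAA. It gave 1 to 13, 9 to 15 and 8 to 29 in controls (7 against 6, 8 against 7, 8 against 6 WAA), and 0 to 11, 5 to 28 and 6 to 44 in 1-MCP clusters. At these lowest and highest counts in controls 0.0353% and 0.535%, 0.854% and 1.1%, and 0.593% and 1.9% of all loci passed. In 1-MCP clusters these shares were 0% or 0.0631% and 0.367%, 0.364% or 0.365% and 1.42%, and 0.407% and 1.79%. With 3 and 1 calls for 1-MCP at 6 and 7 WAA they were 0.0605% and 0.00603%. The lowest counts against 6 WAA came without a library of 6 WAA, the 28 without 1-MCP 7 WAA replicate 4, and the 1 call of 1-MCP at 7 WAA without replicate 1. Among values of named loci in alternatives 567 stayed on their side of the threshold, 92 lost the call and 2 gained it. Over loci with 1 isoform only, unidentified loci held 12.9% of the units. By the shortest isoform the median lengths were 433 and, in identified loci, 1155 bases, and in classes of up to 300, 500, 1000, 2000 and 5000 bases (the first above 200) unidentified loci were detected at 8.79%, 18.6%, 42.2%, 53.8% and 62.4% and identified loci at 14.0%, 18.0%, 32.8%, 55.9% and 69.1%. Identified loci detected in at least 1 library stood at 50.4%, 54.3%, 60.6%, 74.2% and 80.8%. The cause of these moves was not tested.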
